A study of Rattus norvegicus with 10 samples.

Results

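The 10 genes described here encode enzymes that bring long-chain fatty acids into mitochondria and shorten them there. They are Cpt1a, Cpt1b, Cpt2, Acadl, Acadm, Acadvl, Hadha, Hadhb, Acaa2 and Ech1, chosen by name from the 18025 genes of the deposited table, and all 10 were found and tested. Their mRNA was measured in hearts of wild-type Sprague-Dawley rat fetuses at embryonic day 19.5, with 5 libraries of a control group (CON) and 5 of a hyperglycemia group (HG). The labels, the study's methods and results and a supplementary legend name hearts, whereas another legend speaks of cardiomyocytes isolated from the fetuses. Isolated cells would change what markers of other cells mean here. The dams were 3 months old. HG dams received intraperitoneal streptozotocin, which destroys pancreatic beta cells, in citric acid buffer on consecutive days, and CON dams the buffer alone. The study's methods describe the injections after mating, whereas its introduction places the hyperglycemia before pregnancy, so that their order is not settled. In either order the treatment was given to the dam, and the fetal heart met it only through the pregnancy. The sources used here do not say whether the libraries of a group come from separate litters, so that every p-value measures the spread between these libraries.

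Long-chain fatty acids cross the mitochondrial membranes as carnitine esters. Carnitine palmitoyltransferase 1 of the outer membrane makes the ester and is inhibited by malonyl-CoA, with Cpt1a encoding the isoform of liver and of the immature heart and Cpt1b that of muscle and of the adult heart. Inside, the product of Cpt2 returns the fatty acid to coenzyme A, and each round of beta-oxidation then removes an acetyl unit through a dehydrogenase, a hydratase, a second dehydrogenase and a thiolase. The fetal heart relies mostly on glucose and lactate, and fatty acid oxidation becomes its main source of energy after birth.

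Of the 10 enzymes, 7 were lower and 1 was higher in HG than in CON, and the changes were small. The lower mRNAs were those of Cpt1b, Acadl, Acadm, Acadvl, Hadha, Hadhb and Acaa2, by 10.6% for Hadha to 29.6% for Acaa2. Cpt1a was higher by 11.4%, while Cpt2 and Ech1 did not pass the test. The calls are at a Benjamini-Hochberg adjusted p under 0.05 in limma, fitted to log2(FPKM + 0.1) over the 14542 genes that averaged 0.1 FPKM or more. FPKM is the number of reads divided by gene length and by library size. Of all genes tested, 11.8% were lower and 28.4% were higher by the same rule. No member passed the additional threshold of a 2-fold change, which 1.94% of the genes passed. Every HG library lay below every CON library for the same 7 enzymes and above for Cpt1a, an order that 8.12% and 19.3% of the genes showed, respectively. Which of these calls keep their direction depends on the scale: when libraries were scaled on cardiomyocyte markers, no member was lower in HG, as described below.

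Hadha and Hadhb are shown with the sequence between them because their genes lie head to head on chromosome 6 and their mRNAs fell together. The stretch of 243 bases lies between the RefSeq records of both genes and is written on the strand of Hadha. Acadvl is shown because its window holds a hexamer known from nuclear receptor sites. In each, capitals mark matches to the motifs listed next, namely the reverse complement CCGCCC of the GC box in the first and the hexamer AGGTCA in the second.
Hadha, chr6:31907558-31907800, plus strand: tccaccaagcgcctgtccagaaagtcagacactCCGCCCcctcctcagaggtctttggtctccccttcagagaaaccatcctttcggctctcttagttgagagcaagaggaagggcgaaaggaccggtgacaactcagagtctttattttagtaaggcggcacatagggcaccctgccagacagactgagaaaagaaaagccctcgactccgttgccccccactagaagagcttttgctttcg
Acadvl, chr10:55236787-55236955, minus strand: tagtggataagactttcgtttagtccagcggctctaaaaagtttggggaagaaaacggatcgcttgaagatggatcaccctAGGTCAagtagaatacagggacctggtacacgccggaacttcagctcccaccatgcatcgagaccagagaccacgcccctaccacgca
The sequences and coordinates are those of RefSeq on GRCr8, matched by gene identifier, whereas the reads were aligned to mRatBN7.2. The stretch of Acadvl lies outside the record of the gene.

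Windows of 300 bases, from 250 before to 50 after the annotated start site, were matched for 6 of the 10 members (Cpt1a, Cpt2, Acadm, Acadvl, Hadha and Hadhb), and not for Cpt1b, Acadl, Acaa2 and Ech1. Motifs were chosen with the results known and were searched on both strands. The hexamer AGGTCA, which nuclear receptors such as the PPARs and ERRs bind, occurs in 15.7% of all 27452 windows. Its extended form AAGGTCA, which contains the hexamer, occurs in 4.37%. A direct repeat of NGGNCA with 1 base between the copies, the layout bound by PPAR with RXR, occurs in 1.88%, and the GC box GGGCGG in 34.9%. Acadvl holds the hexamer at -169 to -164, printed above, and again at -17 to -12, where it opens the repeat AGGTCAGTGGTCA (-17 to -5). Hadhb holds the extended form AAGGTCA on the opposite strand at +43 to +49, and 4 GC boxes. Acadm and Cpt2 hold 3 GC boxes each and Hadha 1. The windows of Hadha and Hadhb overlap, and the box of Hadha (-210 to -205) is the same stretch as the box of Hadhb at -96 to -91. The window of Cpt1a holds none of these motifs, and those of Acadm, Cpt2 and Hadha hold GC boxes only. These matches describe letters and say nothing about binding in these hearts.

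Between 16672876 and 19109844 reads lay on genes per library, recovered from the deposited FPKM as whole reads for 100% of the genes. A member held 893 to 10427 reads in a library, which sets a counting error of at most 3.35% for Cpt2 and less for the others. Over all genes tested, the median log2 fold change of HG against CON was 0.09. On this scale more genes therefore lay higher than lower in HG, and how much of this comes from the scale was not tested. As a check of the tissue, all 12 cardiomyocyte markers were tested and all lay on the lower side in HG, with log2 fold changes from -1.03 (Myh6) to -0.06 (Myl7) and 9 of them called. Their summed level was 27825 to 29116 FPKM in CON and 22149 to 25398 FPKM in HG. Of 5 smooth muscle markers 3 were higher in HG and 1 was lower, with sums of 735.8 to 858.6 FPKM in CON and 949.5 to 1197 FPKM in HG. Of 7 red cell markers 6 were lower, with sums of 9991 to 18867 FPKM in CON and 7813 to 11012 FPKM in HG. With hemoglobin genes left out, 7 members were lower and 1 was higher, whereas the part of the smooth muscle change in the members' values was not tested. Endothelial markers were higher for 2 of 5 genes (sums of 228.7 to 249.4 FPKM in CON and 238.0 to 258.7 FPKM in HG). Fibroblast markers were higher for 2 of 6 and lower for 2 (1500.1 to 1726 and 1392 to 1580 FPKM). Macrophage markers were higher for 2 of 5 and lower for 2 (21.4 to 28.0 and 22.6 to 32.2 FPKM), and 1 of 3 tested skeletal muscle markers, Myog, was higher (2.02 to 5.22 and 4.46 to 6.20 FPKM for the list). The part of these lists in the members' values was not tested either. In heart tissue, fewer cells of a type and less RNA per cell cannot be told apart. CON replicate 3 stood apart in liver mRNA, with 34.9 FPKM of Alb and 24.3 FPKM of Afp, while the other libraries had at most 2.93 and 1.35 FPKM. Of 8 liver markers 7 were tested and 5 were lower in HG, with sums of 3.15 to 84.9 FPKM in CON and 1.33 to 2.60 FPKM in HG. The members gave the same counts of 7 lower and 1 higher without that library. Of the brown fat markers, Ucp1 and Adipoq were below the filter, Cidea was lower in HG without overlap (15.8 ± 2.83 FPKM in CON, 10.5 ± 0.824 FPKM in HG, adjusted p = 0.0012), and Prdm16 did not pass the test (3.93 ± 0.529 and 4.56 ± 0.193 FPKM, adjusted p = 0.065). The part of Cidea's change in the members' values was not tested. The Y chromosome genes Eif2s3y, Kdm5d and Uty were high in 2 of 5 libraries of each group and near 0 in the others, whereas Ddx3y was at 0.340 to 1.04 FPKM in every library and higher in HG (log2 fold change of 0.81, adjusted p = 0.0061). With the mean level of these genes as a covariate, 7 members were lower and 1 was higher.

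**Figure D1:**
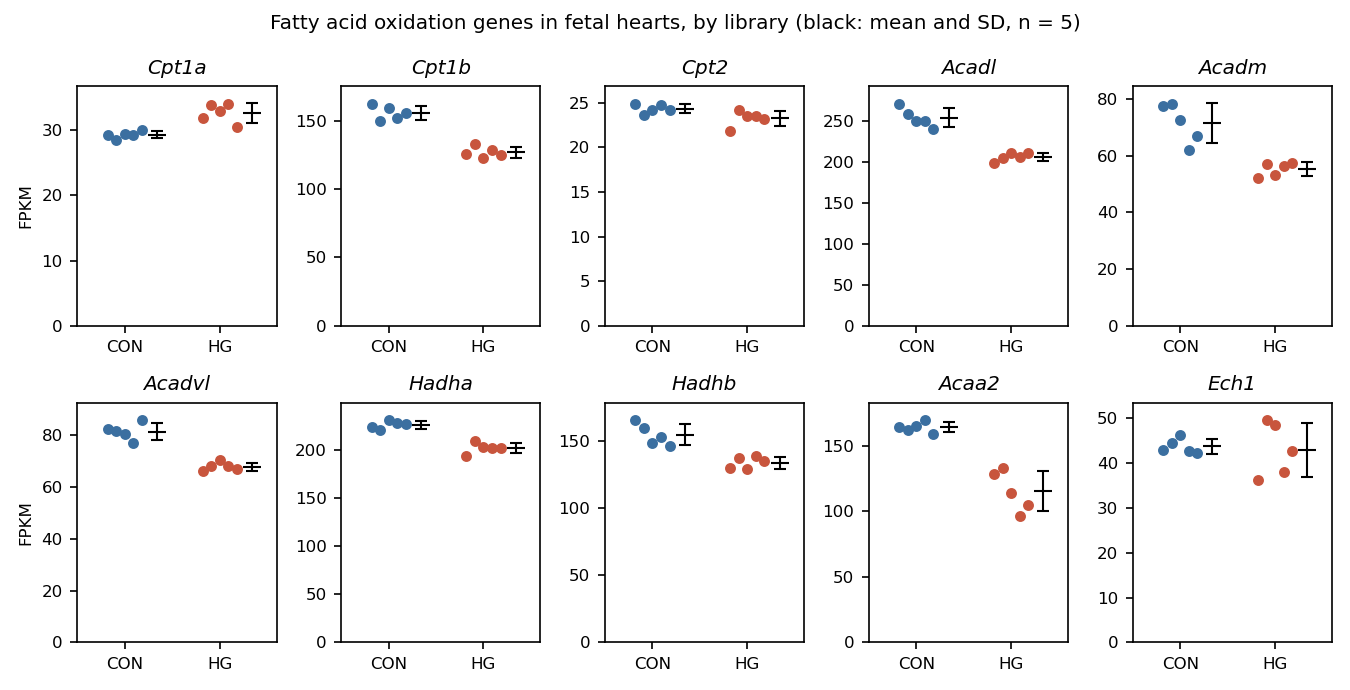
FPKM of each enzyme in the 5 CON (blue) and 5 HG (red) libraries, each on its own axis from 0, with the mean and SD in black. The groups separate for Cpt1a (HG above) and for Cpt1b, Acadl, Acadm, Acadvl, Hadha, Hadhb and Acaa2 (HG below), and overlap for Cpt2 and Ech1.

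Cpt1a and Cpt1b moved in opposite directions. Cpt1a (NCBI Gene 25757) was at 29.2, 28.5, 29.4, 29.2 and 30.0 FPKM in CON replicates 1 to 5 and at 31.7, 33.8, 32.9, 33.998 and 30.4 FPKM in HG. All HG libraries were above all CON libraries, although HG replicate 5 was close to CON replicate 5. The mean was 29.3 ± 0.548 FPKM in CON against 32.6 ± 1.52 FPKM in HG (SD, n = 5 each), a log2 fold change of 0.15 (SE 0.0387, limma adjusted p = 0.0075). The call of Cpt1a was lost when libraries were scaled by median-of-ratios factors (log2 fold change of 0.06, adjusted p = 0.29) or by quantiles (0.10, adjusted p = 0.057). Cpt1b (25756), the muscle isoform, was at 162.3, 149.9, 159.5, 152.1 and 155.5 FPKM in CON and at 125.2, 133.0, 122.5, 128.3 and 124.9 FPKM in HG. The groups were well apart, with a gap larger than the range within either. Its mean fell from 155.9 ± 5.11 to 126.8 ± 4.04 FPKM, a log2 fold change of -0.30 (SE 0.0346, adjusted p = 5.1e-05).

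The balance between the isoforms is not moved by any single scaling factor of a library, since both levels come from the same library. Quantile normalization is not such a factor, and under it Cpt1b had a log2 fold change of -0.28 and Cpt1a of 0.10. The balance can also move with the cell types in the tissue, and that part was not tested. On the deposited scale Cpt1b was at -0.30 and Cpt1a at 0.15, beside a median of -0.33 for the cardiomyocyte markers. Cpt1b held 84.8%, 84.0%, 84.4%, 83.9% and 83.8% of the summed FPKM of both isoforms in CON, and 79.8%, 79.7%, 78.8%, 79.1% and 80.4% in HG. The muscle isoform was therefore the main one in every library, and its share was lower in every HG library than in any CON library. The mean share was 84.2 ± 0.398% in CON and 79.6 ± 0.636% in HG, a difference of -4.63 percentage points (two-sided exact permutation test, p = 0.00794, the smallest that 5 against 5 allow). As a ratio, Cpt1b was at 5.33 ± 0.161 times Cpt1a in CON and at 3.90 ± 0.153 times in HG, a log2 difference of -0.45 (exact permutation test, p = 0.00794, adjusted over 5 ratios 0.0198).

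Cpt2 (25413), the inner-membrane transferase that has no second isoform, was at 24.9, 23.7, 24.2, 24.7 and 24.2 FPKM in CON and at 21.8, 24.3, 23.5, 23.5 and 23.2 FPKM in HG. The groups overlap through HG replicate 2 alone, and HG replicate 1 was the lowest of all libraries. The log2 fold change was -0.07 with a 95% interval from -0.15 to 0.02 (adjusted p = 0.18), and median-of-ratios or quantile scaling brought it past the threshold (-0.16, adjusted p = 0.0084, and -0.13, adjusted p = 0.019). Relative to Cpt1b, Cpt2 was higher in HG: the ratio was 0.156 ± 0.00426 in CON and 0.183 ± 0.00633 in HG, with no overlap (log2 difference 0.23, exact permutation test, p = 0.00794, adjusted 0.0198).

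**Figure D2:**
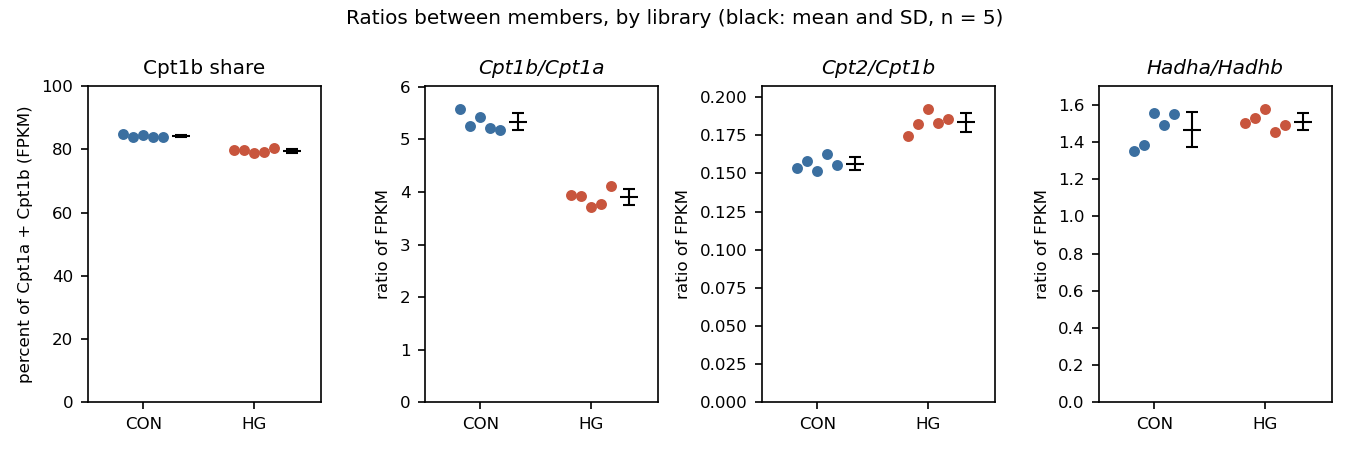
Share of Cpt1b in the sum of Cpt1a and Cpt1b (percent) and the ratios Cpt1b/Cpt1a, Cpt2/Cpt1b and Hadha/Hadhb, from FPKM, in the 5 CON (blue) and 5 HG (red) libraries, with mean and SD in black and axes from 0. The share falls from a mean of 84.2% to 79.6% and Cpt1b/Cpt1a from 5.33 to 3.90, Cpt2/Cpt1b rises from 0.156 to 0.183, and Hadha/Hadhb overlaps between groups.

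The acyl-CoA dehydrogenases among the members, which open each round of beta-oxidation and differ in the chain length they prefer, were all lower in HG. Acadvl (25363), for very long chains, was at 82.3, 81.5, 80.3, 77.1 and 85.8 FPKM in CON and at 66.3, 68.1, 70.3, 68.0 and 66.8 FPKM in HG. Its HG libraries were tightly grouped below the lowest CON library. The mean was 81.4 ± 3.15 FPKM in CON against 67.9 ± 1.54 FPKM in HG (log2 fold change of -0.26, SE 0.0347, adjusted p = 0.00013). Acadl (25287), for long chains and the most abundant member in both groups, was at 270.7, 258.1, 250.2, 249.2 and 239.7 FPKM in CON and at 197.9, 205.1, 210.3, 205.5 and 210.8 FPKM in HG. Again no HG library reached the lowest CON library. Its mean fell from 253.6 ± 11.6 to 205.9 ± 5.20 FPKM (log2 fold change of -0.30, SE 0.0371, adjusted p = 7.9e-05).

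Acadm (24158), for medium chains, was at 77.4, 78.2, 72.6, 62.1 and 67.0 FPKM in CON and at 52.1, 57.1, 53.3, 56.3 and 57.3 FPKM in HG. The CON libraries were the more spread, and CON replicate 4 came close to the HG group. The mean was 71.5 ± 6.90 FPKM in CON against 55.2 ± 2.39 FPKM in HG (log2 fold change of -0.37, SE 0.0617, adjusted p = 0.00063). The 3 dehydrogenases were not shown to change by different amounts. The log2 difference of the ratio was 0.11 for Acadvl/Acadm (exact permutation test, p = 0.159, adjusted 0.265) and 0.07 for Acadl/Acadm (exact permutation test, p = 0.238, adjusted 0.298). Without CON replicate 4, the difference of Acadl/Acadm was 0.11 (exact permutation test, adjusted p = 0.0265).

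Hadha and Hadhb encode the alpha and beta subunits of the mitochondrial trifunctional protein, which carries out the remaining steps on long chains. Hadha (170670) was at 224.3, 221.2, 231.5, 228.1 and 227.2 FPKM in CON and at 194.5, 209.6, 203.4, 202.2 and 202.4 FPKM in HG. Relative to its mean it had the narrowest spread within CON of all members, and the groups did not overlap. Its mean was 226.4 ± 3.91 FPKM in CON against 202.4 ± 5.36 FPKM in HG (log2 fold change of -0.16, SE 0.0303, adjusted p = 0.0012), a call lost with quantile scaling (-0.09, adjusted p = 0.068). Hadhb (171155) was at 165.5, 159.9, 148.5, 153.1 and 146.7 FPKM in CON and at 129.6, 137.2, 129.1, 138.8 and 135.5 FPKM in HG. Its groups did not overlap either, with CON replicates 1 and 2 the highest. The mean was 154.7 ± 7.90 FPKM in CON against 134.0 ± 4.45 FPKM in HG (log2 fold change of -0.21, SE 0.0404, adjusted p = 0.0017). The ratio of the subunits was 1.47 ± 0.0938 in CON and 1.51 ± 0.0442 in HG, a log2 difference of 0.04 within the spread of the libraries (exact permutation test, p = 0.373).

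Acaa2 (170465), the thiolase that cleaves medium and short chains, had the largest change of the 10. It was at 164.7, 162.1, 165.0, 169.5 and 159.4 FPKM in CON and at 128.7, 133.4, 114.2, 96.8 and 104.7 FPKM in HG. The CON libraries lay close together while the HG libraries spread widely, with HG replicate 4 the lowest. The mean fell from 164.1 ± 3.78 to 115.6 ± 15.5 FPKM (log2 fold change of -0.52, SE 0.0756, adjusted p = 0.00025). Ech1 (64526), an isomerase for fatty acids with double bonds in awkward positions, was at 42.8, 44.4, 46.3, 42.6 and 42.1 FPKM in CON and at 36.2, 49.5, 48.4, 37.9 and 42.7 FPKM in HG. HG libraries fell on both sides of the CON group. The log2 fold change was -0.03 with a 95% interval from -0.21 to 0.14 (adjusted p = 0.77). In RefSeq the record of Ech1 overlaps that of LOC103689966 (3.85 FPKM in CON, 5.55 FPKM in HG), and how reads of the shared part were assigned was not examined here. Records of Cpt1a, Cpt2, Acadl, Acadm and Acadvl overlap those of non-coding genes, for which no level is given here.

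Within a group, the members varied with a coefficient of variation from 1.73% (Hadha in CON) to 14.0% (Ech1 in HG). In CON the order of levels was Acadl, Hadha, Acaa2, Cpt1b, Hadhb, Acadvl, Acadm, Ech1, Cpt1a and Cpt2. Neighbours whose ranges overlap were Acaa2 and Cpt1b, Cpt1b and Hadhb, and Acadvl and Acadm. In HG, Hadhb (134.0 FPKM) and Cpt1b (126.8 FPKM) came before Acaa2 (115.6 FPKM), and the rest kept their order. There the ranges of Acadl and Hadha, Hadhb and Cpt1b, and Cpt1b and Acaa2 overlap. The members together held 0.255% to 0.263% of all FPKM in a CON library and 0.216% to 0.231% in an HG library. HG replicate 1 was the lowest of its group for 6 members and HG replicate 2 the highest for 5, and leaving out any of the 10 libraries in turn gave 7 members lower and 1 higher.

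**Figure D3:**
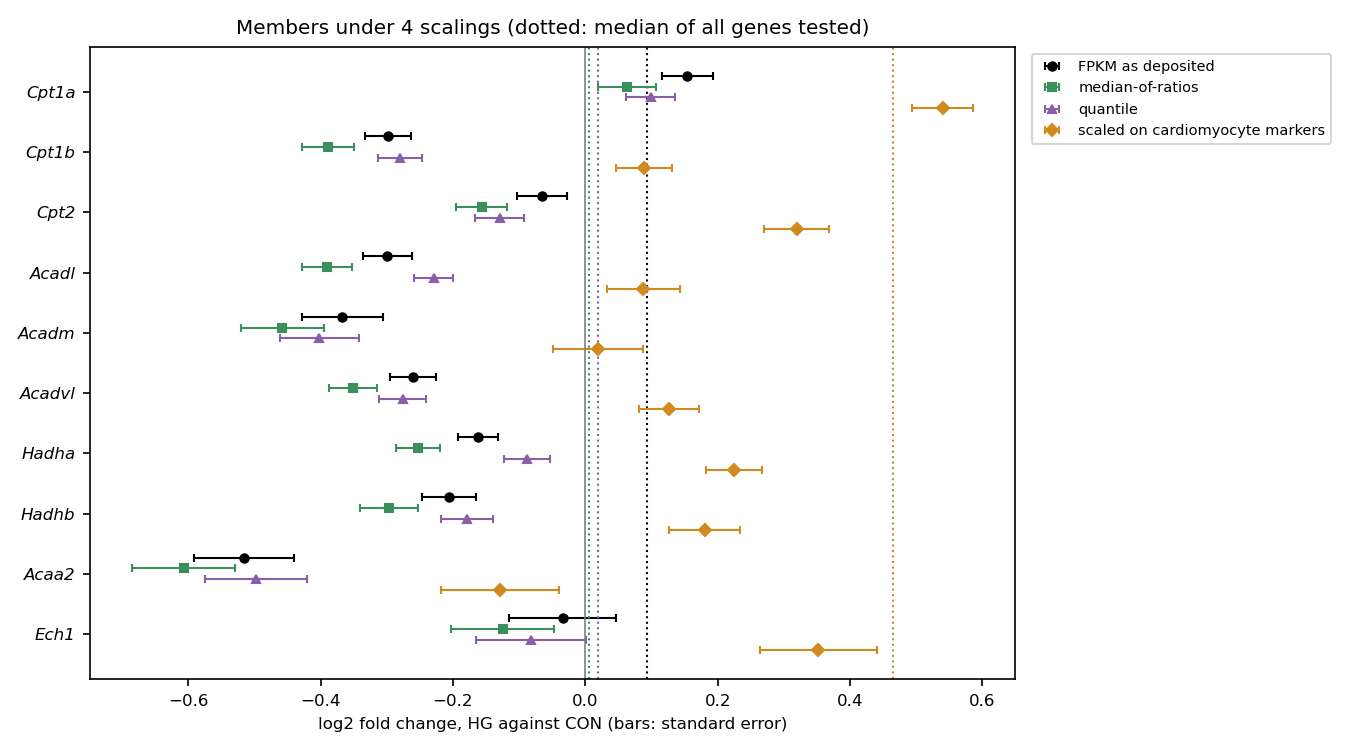
Log2 fold change of each enzyme, HG against CON, with its standard error, from FPKM as deposited (black), median-of-ratios factors (green), quantile normalization (purple) and libraries scaled on the cardiomyocyte markers (orange). Dotted lines give the median of all genes tested on each scale, from 0.01 (median-of-ratios) to 0.46 (cardiomyocyte markers). Most members lie to the left of 0 on the first 3 scales and to the right on the fourth.

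FPKM is relative to the other mRNAs of a library, and the direction of the members depended on the reference. The members had a median log2 fold change of -0.23 as deposited, which is -0.33 relative to the median of all genes. With median-of-ratios factors, 8 members were lower, Cpt2 now among them, and none was higher, while 17.6% of all genes were lower and 15.6% higher. When each library was scaled on the geometric mean of the 12 cardiomyocyte markers, the median of all genes moved by 0.37 to 0.46. On that scale 0 members were lower (2.54% of all genes were) and 6 were higher (Cpt1a, Cpt2, Acadvl, Hadha, Hadhb and Ech1), while 75.8% of all genes were higher. The members' median minus that of all genes was -0.33 on the deposited scale and -0.22 on the quantile scale. It was -0.33 and -0.31 on the median-of-ratios and cardiomyocyte scales, which divide each library by a single factor. Such a factor shifts all genes nearly alike, so that the difference could hardly change there. The cardiomyocyte markers had a median log2 fold change of -0.33 on the deposited scale, beside -0.23 for the members. The part of the markers in the members' result was not tested.

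**Figure D4:**
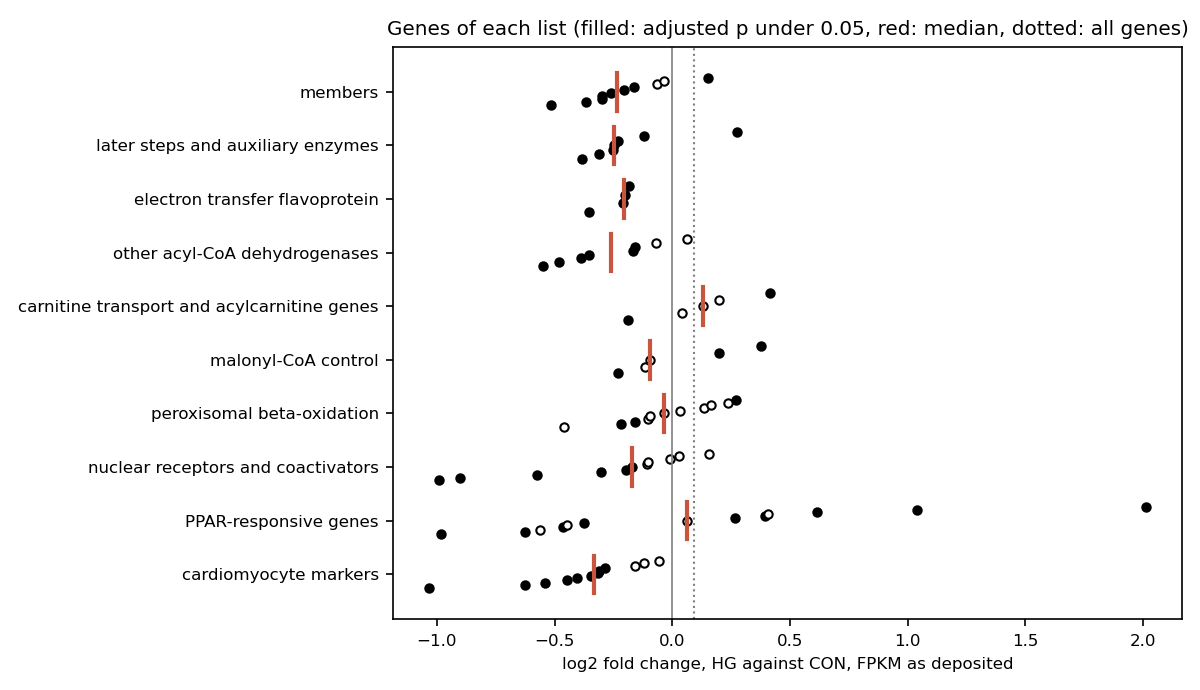
Log2 fold change, HG against CON, of each tested gene in the lists around the enzymes and in the cardiomyocyte markers, from FPKM as deposited. Filled points have an adjusted p under 0.05, red bars are list medians and the dotted line is the median of all genes (0.09). Genes of the electron transfer flavoprotein and of the later steps lie with the members, while carnitine transport, peroxisomal and PPAR-responsive genes lie on both sides.

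Later enzymes of mitochondrial beta-oxidation, and acyl-CoA dehydrogenases outside the members, mostly moved as the members did. Of the later steps and auxiliary enzymes, 6 of 7 were lower and 1 was higher, with a median log2 fold change of -0.25. The largest decrease was that of Echs1, the short-chain enoyl-CoA hydratase, from 100.5 ± 4.98 to 76.9 ± 2.30 FPKM (log2 fold change of -0.38, adjusted p = 2.0e-05). Decr1, a reductase needed for unsaturated fatty acids, was the one that rose, from 67.6 ± 3.29 to 82.1 ± 9.33 FPKM (log2 fold change of 0.27, adjusted p = 0.0072), also with median-of-ratios factors (0.18, adjusted p = 0.039). Of the other acyl-CoA dehydrogenases, 6 of 8 were lower and none was higher (median -0.26). This list includes enzymes of amino acid breakdown and is not one of fatty acid oxidation alone. The largest decrease was that of Ivd, which acts in leucine breakdown, from 81.9 ± 3.57 to 56.1 ± 3.75 FPKM (log2 fold change of -0.55, adjusted p = 7.0e-06).

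The electron transfer flavoprotein carries electrons from the dehydrogenases to the respiratory chain, and all 4 of its genes tested were lower. Etfdh, the oxidoreductase that passes the electrons on, went from 91.7 ± 2.26 to 71.7 ± 3.68 FPKM (log2 fold change of -0.35). The subunits Etfa and Etfb were at -0.18 and -0.21, and the regulatory factor Etfrf1 at -0.20. On the cardiomyocyte scale, none of the 4 was lower and 3 were higher.

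Carnitine transport genes were mixed, with 1 of 5 genes higher, 1 lower and a median of 0.13. Slc25a20, the exchanger that moves acylcarnitine through the inner membrane, was at 55.6 ± 2.00 FPKM in CON against 57.3 ± 2.26 FPKM in HG (log2 fold change of 0.04, adjusted p = 0.40). Crat, the short-chain acetyltransferase, fell from 60.2 ± 3.92 to 52.9 ± 3.60 FPKM (adjusted p = 0.018), and Crot, its peroxisomal counterpart for medium chains, rose from 3.33 ± 0.399 to 4.46 ± 0.420 FPKM (adjusted p = 0.0035). The carnitine importer Slc22a5 (log2 fold change of 0.20, adjusted p = 0.12) and Cpt1c, the brain isoform (0.13, adjusted p = 0.41), stayed under the threshold at about 2 FPKM.

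Malonyl-CoA, the inhibitor of carnitine palmitoyltransferase 1, is made by acetyl-CoA carboxylases, whose activity AMP-activated kinase restrains, and is removed by the decarboxylase of Mlycd. Of these 5 genes 2 were higher and 1 was lower. Acaca, the lipogenic carboxylase, rose from 9.41 ± 0.443 to 10.8 ± 0.905 FPKM (log2 fold change of 0.20, adjusted p = 0.022), a call lost with median-of-ratios factors (0.11, adjusted p = 0.22). Acacb, the carboxylase at the mitochondrial surface, fell from 16.7 ± 1.40 to 14.2 ± 1.21 FPKM (-0.23, adjusted p = 0.020). Prkaa1, a catalytic subunit of the kinase, rose from 9.06 ± 0.375 to 11.8 ± 0.457 FPKM (0.38, adjusted p = 7.9e-05). Mlycd was at -0.11 (adjusted p = 0.18) and Prkaa2, the other catalytic subunit, at -0.10 (adjusted p = 0.20).

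Peroxisomes shorten very long fatty acids with a separate set of enzymes, and of 11 of these genes tested 1 was higher and 2 were lower, with a median of -0.04. Acox2, the 12th gene listed, was below the filter. The deposited KEGG annotation gives a wider view. In Fatty acid degradation, 6 of 39 tested genes were higher and 19 were lower (median -0.17). The 30 genes of it that are not members had 5 higher and 12 lower, with a median of -0.09. Of the other mitochondrial pathways, 24 of 29 genes were lower and 4 higher in Citrate cycle (median -0.30), and 83 of 114 were lower and 3 higher in Oxidative phosphorylation (median -0.29). In Peroxisome, 17 of 76 were lower and 13 higher (median 0.03). All these counts stand against 11.8% lower and 28.4% higher over all genes.

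Nuclear receptors of the PPAR and ERR families and their coactivators control transcription of fatty acid oxidation genes in the heart. The list of 11 genes tested also holds Rxra, Klf15 and Nrip1, which belong to none of these groups. Of the 11, 6 were lower and none was higher. The coactivators Ppargc1a and Ppargc1b were not called (limma adjusted p = 0.27 and 0.48). Pparg had the largest decrease at a very low level, 0.791 ± 0.229 FPKM in CON against 0.341 ± 0.0855 FPKM in HG (log2 fold change of -0.99, adjusted p = 0.0035). Ppara, the main PPAR of fatty acid oxidation in heart, fell from 9.37 ± 1.14 to 4.96 ± 0.518 FPKM (log2 fold change of -0.90, adjusted p = 2.5e-05). On the cardiomyocyte scale Ppara was still lower (-0.52, adjusted p = 0.00055), but of the 11 genes 7 were higher there and 2 were lower.

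Genes known to respond to PPARs went both ways, with 5 of 13 higher, 4 lower and a median of 0.06. Angptl4, a secreted inhibitor of lipoprotein lipase, rose from 0.505 ± 0.109 to 2.32 ± 0.112 FPKM (log2 fold change of 2.01, adjusted p = 6.4e-07). Lpl, the lipoprotein lipase itself, which frees fatty acids from circulating triglycerides, fell from 43.1 ± 2.55 to 21.7 ± 1.06 FPKM (-0.98, adjusted p = 2.0e-07). Both changes kept their direction and their call on the median-of-ratios and cardiomyocyte scales.

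For each member, the gene with the most similar profile over the 10 libraries was sought among 11699 tested genes that averaged 1 FPKM or more, by the root mean square difference of centred log2 values. The closest match of all was between Cpt1b and Gramd2b (0.0239). Acadl lay nearest to Atp5mf (0.0376) and Hadhb to Atp5mc2 (0.0399), both subunits of ATP synthase, and Acadvl to Hsd17b10 (0.0465), a dehydrogenase of beta-oxidation. Hadha lay nearest to Slc27a4 (0.0273), a fatty acid transport protein. The nearest genes of the remaining members were Ipo4 for Cpt1a (0.0330), Atp6v0d1 for Cpt2 (0.0331), Dnajb4 for Acadm (0.0591), Cep170b for Acaa2 (0.0594) and Snapc1 for Ech1 (0.0590). These are descriptions over 10 libraries that share the difference between the groups.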

How the data were processed

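mRNA of fetal rat hearts (5 CON, 5 HG libraries, stranded kit) was sequenced by the authors, who deposited FPKM per gene with GO and KEGG annotation. The submitters' processing notes list fastp, HISAT2, HTSeq, R 3.2.0 and the build mRatBN7.2. The study's methods name DESeq and mention pooled RNA, although values differ between the deposited libraries. DESeq takes counts and was not used.

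log2(FPKM + 0.1) of the 14542 genes averaging 0.1 FPKM or more (3483 fell below) was fitted with limma 3.58.1 in R 4.3.3, with a trend on expression and no covariate. Fold changes on this scale understate those of low genes. Ratios were compared by two-sided exact permutation over libraries, and files were read with Python 3.11.15. Whole reads were recovered from FPKM steps (tolerance 0.05 reads, 16672876 to 19109844 per library, which limits low genes most). All sample columns were used (0 unused).

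Members and lists were chosen with earlier results of these data known. Named genes are all members, the called gene with the largest increase and decrease of each list, every gene of lists of at most 5, and the nearest profile of each member. Of these, 2 genes of the peroxisomal list are not reported here. Marker genes were named as cell identity required. Ppara, Rxra, Klf15, Nrip1, Ppargc1a, Ppargc1b, Acox2 and neighbouring genes were outside this rule and were named after their values were seen. Alternatives were 2 pseudocounts, 2 filters, 4 scalings (median-of-ratios, quantile, hemoglobin genes left out, cardiomyocyte markers), no trend, array weights, the replicate block, a Y chromosome gene covariate, voom on recovered reads and each library left out.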

Additional observations from a re-analysis of the deposited data

How the results depend on the processing

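As deposited, 1709 genes were lower and 4127 higher in HG. Genes higher in HG were 2271 with median-of-ratios factors, 2615 with quantile normalization and 11042 with libraries scaled on cardiomyocyte markers, a scale that left 370 genes lower. On the cardiomyocyte scale, 0 members were lower and 6 higher, and of the genes in the lists 43 were higher and 5 lower. Members higher in HG numbered 0 with median-of-ratios factors and 0 with quantile normalization. The log2 fold change turned positive on the cardiomyocyte scale for Cpt1b (0.089), Cpt2 (0.32), Acadl (0.087), Acadm (0.020), Acadvl (0.13), Hadha (0.22), Hadhb (0.18) and Ech1 (0.35), a scale whose reference genes were themselves lower in HG. Ech1, not called on the deposited scale, ranged from -0.088 to 0.025 with a library left out, and was positive without HG replicate 1 (0.025) or HG replicate 4 (0.0080). Leaving out a library moved Acadl/Acadm between 0.041 and 0.11, past the threshold only without CON replicate 4, and changed no call of the other 4 ratios.

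The numbers of the labels do not pair the libraries: deviations of same-numbered libraries correlated at -0.13 to 0.11, and no CON library correlated best with its own number. With the replicate number as a block, 7 members were lower and 1 higher. The replicate block gave the log2 ratio of Cpt1b/Cpt1a (-0.45) an adjusted p of 0.156, that of Cpt2/Cpt1b (0.23) an adjusted p of 0.156 and the share of Cpt1b (-4.63 points) a p of 0.0625 by exact sign-flip permutation, where 0.0625 is the smallest p that 5 pairs allow.

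Quantile normalization gave 7 lower members with Cpt2 in place of Hadha. The remaining alternatives, voom on recovered reads among them, gave 7 lower members and 1 higher member. Genes at a few reads per library, such as Pparg, are imprecise at this depth. Hearts hold several cell types, and the deposited values carry no measure of total RNA, so that levels per cell were not measured.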
